A study of Mus musculus with 4 samples.

Results

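Ddit4 is 1 of the 15002 genes counted in 4 mouse medulloblastomas, and its row was described across the cell states of each tumour. The gene was selected on its measured UMI levels across these same cell states, so its own levels below are a description and carry no test. All 4 tumours came from untreated mice harvested at postnatal day 16 that carried hGFAP-Cre, SmoM2 and homozygous floxed Prkaa1 and Prkaa2 (hGFAP-Cre/SmoM2/Prkaa1fl/fl/Prkaa2fl/fl). hGFAP-Cre expresses the Cre recombinase from the human GFAP promoter, which is active in neural stem cells, so the recombined alleles are not limited to the granule cell lineage. SmoM2 is a constitutively active form of Smoothened that drives Sonic hedgehog (SHH) signalling, and Prkaa1 and Prkaa2 encode the alternative catalytic (alpha) subunits of the energy sensor kinase AMPK. Every tumour carried every allele, and the comparison with Prkaa1/2-intact tumours named in the study's design was not analysed here. Cells were dissociated with papain and their RNA was counted with Drop-seq, which tags the 3′ ends of transcripts with unique molecular identifiers (UMIs).

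Ddit4, also called REDD1, inhibits mTORC1, the kinase complex that couples growth factors, energy and amino acids to protein synthesis and growth. The protein acts through the TSC1-TSC2 complex, which switches off the GTPase Rheb, the direct activator of mTORC1. Its gene is a classical target of hypoxia-inducible factor, of Atf4 in the integrated stress response, of p53, of glucocorticoids and of FoxO factors, and the protein is short-lived. AMPK restrains mTORC1 as well, by phosphorylating TSC2 and the mTORC1 subunit Raptor. In SHH medulloblastoma the tumour cells resemble cerebellar granule neuron progenitors, which either keep dividing or leave the cell cycle and differentiate into granule neurons.

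In the GENCODE annotation of GRCm38, Ddit4 lies on the minus strand at chr10:59949669-59951834 and overlaps no other annotated gene. Its transcript of 1755 bases has 3 exons. The coding sequence of 687 bases lies in exons 2 and 3, and the 3′ untranslated region takes up 870 of the 1361 bases of exon 3, the part that a 3′ tag method reads. Because Ddit4 is described as a transcriptional stress target, the 186 bases directly upstream of its annotated start (chr10:59951835-59952020, minus strand, RefSeq promoter table, GRCm38.p6) are shown 5′ to 3′, with the core of a hypoxia response element, ACGTG, in capitals.
Ddit4 upstream: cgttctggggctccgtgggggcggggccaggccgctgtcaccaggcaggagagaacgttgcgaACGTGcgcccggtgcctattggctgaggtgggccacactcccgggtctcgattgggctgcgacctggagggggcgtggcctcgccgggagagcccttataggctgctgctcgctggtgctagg
The window was 69.9% G and C. Searched on both strands, it held the hypoxia core ACGTG 1 time, 123 bases before the start, which 11.8% of 32851 promoter windows of the same length also held. The GC box GGGCGG occurred 1 time, 168 bases before the start (22% of windows), and CCAAT occurred 2 times, at 106 and 73 bases before it (26% of windows). The E-box CACGTG (3.9% of windows), the Atf4 element TGATGNAA (2.47%), the FoxO element GTAAACA (2.43%) and the full glucocorticoid element (0.00913%) had no match, which says only that these letters are not in this window.

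The tables held 6734 cell barcodes, and the 3222 with at least 500 UMIs were used: 766, 807, 566 and 1083 in tumours 1 to 4, with median depths between 749 and 972 UMIs. Tumours 1 and 2 stood apart from tumours 3 and 4, with 12.1% and 12.7% of UMIs from mitochondrial transcripts against 2.68% and 2.13%. No barcode used was shared between tumours. Prkaa1 gave 28 UMIs and Prkaa2 39 over all cells used. The labels do not say which exons were flanked, and a 3′ tag can come from a transcript that lacks them, so these counts do not check the deletion. In addition, 28 cells carried UMIs of at least 4 oligodendrocyte lineage markers, 25 of microglial, 23 of astrocytic, 21 of endothelial and 6 of mural or fibroblast markers. These 96 cells in all (some met more than 1 list) held 5 Ddit4 UMIs, 28.5 UMIs per 1000000 UMIs (CPM) with an exact Poisson 95% interval of 9.27 to 66.6.

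Ddit4 was a low-abundance transcript. It gave 50, 52, 55 and 89 UMIs in tumours 1 to 4, 246 in all, and 19.2% of the genes had more UMIs. The corresponding levels were 65.3, 71.9, 104.0 and 71.0 CPM, or 78.0 ± 17.6 CPM (SD, n = 4). Tumour 3 was the highest, and the other 3 lay close together. The UMIs came from 225 cells, of which 206 had 1 UMI, 17 had 2 and 2 had 3. Cells with 2 or more numbered 19, against 12.9 expected from Poisson counts at the rate of a cell's own tumour, state and depth. Tumour 4 held 11 of them against 4.51 expected. Per cell, most zeros were therefore not informative, and levels were read from sums over many cells. These intervals and all others below cover counting error only. The 4 tumours carry separate labels, and nothing in those labels names the animals, so spreads between tumours may hold technical variation.

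Each cell was placed in 1 of 5 states by its marker UMIs, with lists for G2/M (42 genes), S phase (46), SHH-responsive progenitors (25), early neuronal (30) and late neuronal cells (38), none of which contained Ddit4. A cell took the state of its highest scoring list if that score reached 1.5, where the score is the excess of list UMIs over the tumour average in units of the square root of the expected number. A progenitor also needed G2/M and S scores under 1 to count as non-dividing. There were 650 G2/M, 546 S-phase, 184 non-dividing progenitor, 659 early neuronal and 258 late neuronal cells, and 925 cells (28.7%) stayed unassigned. A total of 592 cells (18.4%) scored within 0.5 of the limit. The states are ranges of a score, not separate cell types. Since these markers made the states, their levels describe the states and do not check them. Top2a, the mitotic topoisomerase, ran at 3046.4 to 4493.2 CPM in G2/M cells and 66.6 to 401.4 CPM in early neuronal cells, and Neurod1, the neuronal differentiation factor, at 476.0 to 843.2 and 3549.9 to 4807.6 CPM. Gli1, the SHH target, was at 502.7, 265.1, 59.4 and 46.3 CPM in non-dividing progenitors of tumours 1 to 4 and at 506.5, 203.8, 73.3 and 89.2 CPM in S-phase cells, higher in the progenitors in tumour 2 only. Gabra6, the receptor subunit of mature granule neurons, had 6 UMIs over all cells and 2 in late neuronal cells, too few to tell whether those cells carry that mark of maturity.

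Among the 5 states, Ddit4 was lowest in dividing cells and higher in neuronal cells and non-dividing progenitors. Cycling cells (G2/M and S together) held 37.5, 60.9, 21.3 and 38.2 CPM in tumours 1 to 4, from 12, 17, 5 and 23 UMIs. Neuronal cells (early and late together) held 103.7, 90.1, 185.8 and 106.7 CPM, from 24, 16, 24 and 30 UMIs. Every neuronal value lay above every cycling value, and the means were 121.6 ± 43.4 and 39.5 ± 16.3 CPM (SD, n = 4 tumours). The neuronal to cycling ratio was 2.76 (exact 95% interval 1.33 to 6.06) in tumour 1, 1.48 (0.699 to 3.11) in tumour 2, 8.74 (3.27 to 29.3) in tumour 3 and 2.79 (1.57 to 5.04) in tumour 4. Tumour 2 gave the narrowest ratio, and tumour 3 gave the widest ratio on only 5 cycling UMIs. When cells of at least 1000 UMIs alone were scored, the groups overlapped: tumour 2 then held 50.5 CPM in neuronal cells (4 UMIs) and 62.3 CPM in cycling cells (9 UMIs), and neuronal cells were higher in 3 of 4 tumours. Over the 4 tumours the summed UMIs gave a ratio of 2.89 (2.06 to 4.09).

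**Figure D1:**
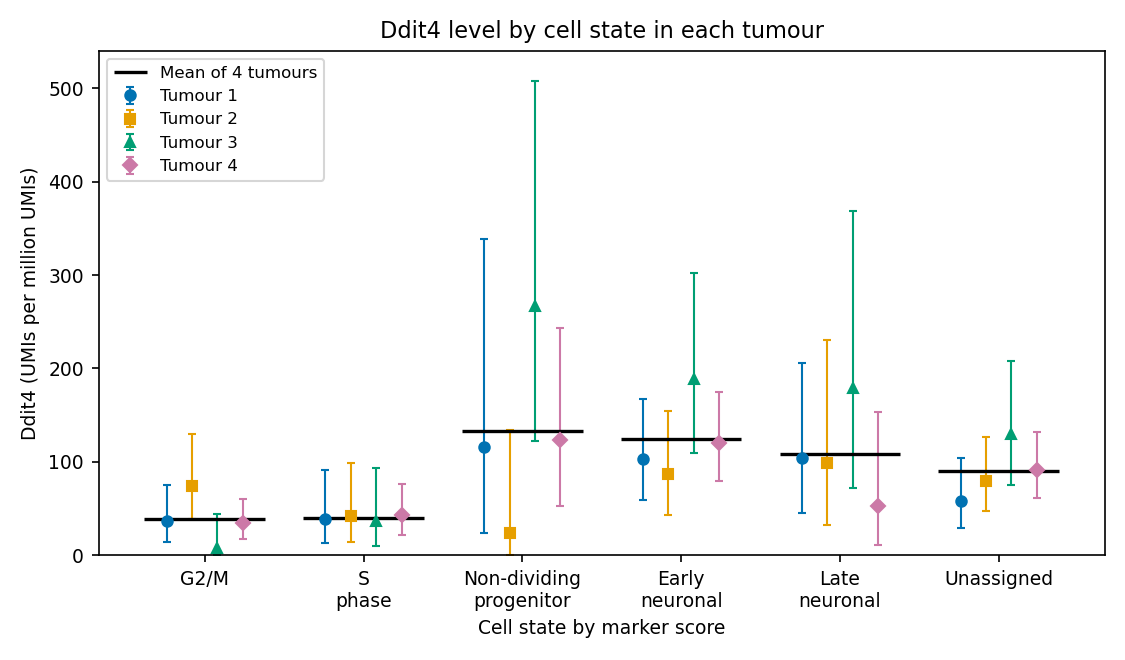
Ddit4 level (CPM, vertical axis from 0) in each of 5 cell states and in unassigned cells; points are tumours with exact Poisson 95% intervals and horizontal lines are means of the 4 tumours. The G2/M and S-phase means, 38.4 and 40.2, lie below those of the other 3 states, 108.7 to 132.7, and the non-dividing progenitor points range from 24.1 to 267.3.

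Within the cycling cells, the G2/M level was 36.6, 74.4, 7.93 and 34.8 CPM in tumours 1 to 4 (38.4 ± 27.3 CPM, SD, n = 4), from 32 UMIs. The S-phase level was 39.0, 42.5, 36.7 and 42.7 CPM (40.2 ± 2.9 CPM, SD, n = 4), from 25 UMIs. S-phase values were close to each other, whereas G2/M values ran from 1 UMI in tumour 3 to 12 UMIs in tumours 2 and 4. The S to G2/M ratio was 1.07, 0.571, 4.62 and 1.23 in tumours 1 to 4, on both sides of 1.

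Among cells outside the cycle, early neuronal cells held 103.2, 86.6, 188.8 and 120.5 CPM (124.8 ± 44.8 CPM, SD, n = 4), from 71 UMIs. Late neuronal cells held 104.6, 98.8, 179.1 and 52.6 CPM (108.7 ± 52.3 CPM, SD, n = 4), from 23 UMIs. The groups overlapped, and the early to late ratio was 1.16 (0.714 to 1.94). Tumour 4 had the lowest late neuronal level, on 3 UMIs, and its late neuronal cells also held 13.6 UMIs of oligodendrocyte lineage markers per 1000, against 0.627 to 1.44 in the other 3 tumours. The part of those markers in its Ddit4 value was not tested. Without the cells that carried at least 4 markers of another cell type, the late neuronal mean was 113.0 CPM. The late neuronal mean was 56.9 CPM on 6 UMIs when cells of at least 1000 UMIs alone were scored, and 58.2 CPM on 3 UMIs when states were taken from Leiden clusters.

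Non-dividing progenitors held 116.0, 24.1, 267.3 and 123.4 CPM (132.7 ± 100.5 CPM, SD, n = 4), from 3, 1, 9 and 8 UMIs. Their range contained that of the neuronal cells, and without tumour 3 their mean was 87.8 CPM. The ratio of summed UMIs was 3.19 (1.84 to 5.35) over cycling cells and 1.10 (0.653 to 1.79) over neuronal cells. Tumour 2 went the other way from the rest, with a ratio over its own cycling cells of 0.396 (0.00947 to 2.52) that rests on 1 UMI in 45 cells. In order of mean level the states ran G2/M, S phase, late neuronal, early neuronal and non-dividing progenitor. The first 2 did not differ beyond their spread, nor did the last 3 among themselves. Unassigned cells lay between, at 58.1, 79.8, 129.7 and 91.7 CPM (89.9 ± 30 CPM, SD, n = 4). Their level lay above that of cycling cells and below that of neuronal cells of the same tumour in all 4. The unassigned cells were a mixture: they held 74 of the 96 cells with markers of other types, and in tumour 2 they had 18447.7 CPM of Ttr, a gene of the choroid plexus, against 96.4 to 217.4 CPM in the 5 states. Without the 74 cells, which had 2 Ddit4 UMIs, the unassigned levels were 65.5, 97.3, 135.5 and 98.9 CPM, and in tumour 2 the neuronal level without such cells was 96.4 CPM, no longer above the unassigned one.

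Without state limits the pattern had the same direction. When the cells of each tumour were ordered by neuronal minus cycling score and divided into 5 equal parts, the mean level was 34.3 ± 26.3 CPM in the most cycling part, 52.7 ± 11.9, 64.8 ± 14.2 and 131.9 ± 79.5 CPM in the following ones and 131.3 ± 45.3 CPM in the most neuronal (SD, n = 4). The most neuronal part exceeded the most cycling part in each tumour, by the least in tumour 2, 101.0 against 70.1 CPM. The step in the mean between parts 3 and 4 came mainly from tumours 3 and 4: they went from 85.2 to 241.9 and from 53.3 to 137.3 CPM, whereas tumour 1 stayed at 63.0 and 64.8 CPM and tumour 2 went from 57.6 to 83.8 CPM.

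**Figure D2:**
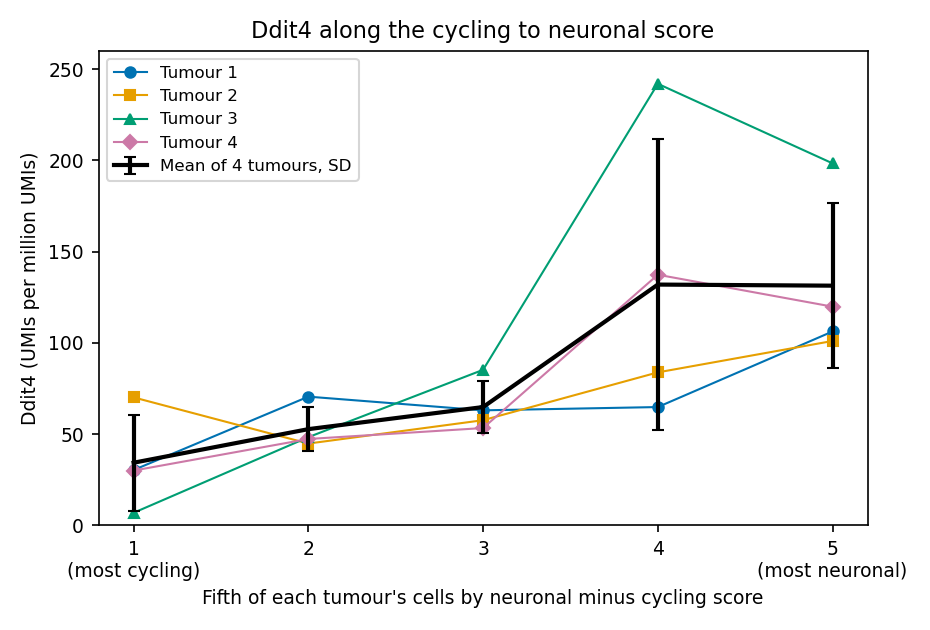
Ddit4 level (CPM, vertical axis) in 5 equal parts of each tumour's cells ordered from the most cycling to the most neuronal marker score; coloured lines are tumours, and the black line is their mean with SD. The mean goes from 34.3 in the first part to 131.3 in the last, and tumour 3 has the highest value in each of the last 3 parts.

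The share of cells with Ddit4 was also lower in the 2 cycling states than in the other 3. After each cell was thinned to 500 UMIs, Ddit4 was found in 1.93% ± 0.876 of G2/M cells, 2.35% ± 0.64 of S-phase cells, 4.83% ± 2.76 of non-dividing progenitors, 5.96% ± 1.72 of early neuronal and 5.08% ± 3.42 of late neuronal cells (SD, n = 4 tumours). The last 3 means did not differ beyond their spread. For the 2 classes the shares were 2.13% ± 0.482 of cycling and 5.83% ± 1.77 of neuronal cells. Thinned to 1000 UMIs, tumour 2 went the other way, with Ddit4 in 8 of 110 cycling cells (7.27%) and 2 of 46 neuronal cells (4.35%). Unthinned they were 4.34% ± 1.47 and 9.77% ± 3.18, at median depths that differed in the opposite sense (1056.5 UMIs in G2/M and 999 in S-phase cells against 779 in early and 736 in late neuronal cells). Among the 25 cells with microglial markers, a type outside the granule lineage, none had a Ddit4 UMI, a number of cells too small to set a background.

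Depth and mitochondrial share moved with the states and between the tumours, and the levels were therefore also taken within them. In cells under 1000 UMIs, Ddit4 was at 46.3 CPM in cycling and 126.1 CPM in neuronal cells over the 4 tumours, and in cells of 1000 UMIs or more at 36.9 and 99.0 CPM. In tumours 1 and 2 it was at 41.7 and 113.5 CPM in cells with at most 10% mitochondrial UMIs and at 53.7 and 79.4 CPM in cells above that limit. The sums of neuronal cells were higher in each of these strata, but tumour 2 departed from them. Its cells above the mitochondrial limit held 73.1 CPM in cycling (12 UMIs) and 62.3 CPM in neuronal cells (6 UMIs), and its cells of 1000 UMIs or more 58.4 and 59.2 CPM. Tumours 1 and 2 together gave 48.4 CPM in cycling and 97.8 CPM in neuronal cells, and tumours 3 and 4 together 33.4 and 131.6 CPM. For non-dividing progenitors the same pairs of libraries gave 59.4 and 172.6 CPM. The part of the mitochondrial share in the difference between these pairs was not tested.

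The genes around Ddit4 in the mTORC1 pathway and its known inducers were then compared between neuronal and cycling cells of the same 4 tumours, with edgeR's quasi-likelihood test on summed UMIs, the tumour as a block and Benjamini-Hochberg adjustment over all 6245 genes tested. State marker genes were left out of the test, and Ddit4 was given no p. The cells had been sorted by marker scores from the same libraries. A total of 1944 genes, 31.1% of those tested, were called at an adjusted p under 0.05, of which 14.9% of all tested were higher and 16.3% lower in neuronal cells. Ddit4 itself had a fitted log2 fold of 1.49, and 304 genes (4.87%) had a larger one. From 11 lists with 194 genes, 105 genes passed the filter on low counts, and of these 14 were called higher and 21 lower in neuronal cells. Those shares lie close to the background, and the median log2 fold of the 105 was 0.03 against -0.02 for all genes tested. A call was therefore read gene by gene, and each list count below stands against 14.9% higher and 16.3% lower over all genes tested. By DESeq2, 20 of the 35 calls were lost: those of Pik3ca, Rragd, Slc38a9, Eif4g1, Rps6, Atf5, Slc7a5, Psat1, Cebpg, Hspa5, Bnip3, Mxi1, Nr3c1, Fkbp5, Klf9, Gadd45a, Trp53inp1, Ier5, Hsph1 and Pik3ip1. In tumours 1 and 2 only, 14 of the 27 that could be tested were lost, Shmt2, Pdcd4 and Ywhag among them, and in tumours 3 and 4 only, 4 of 32.

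**Figure D3:**
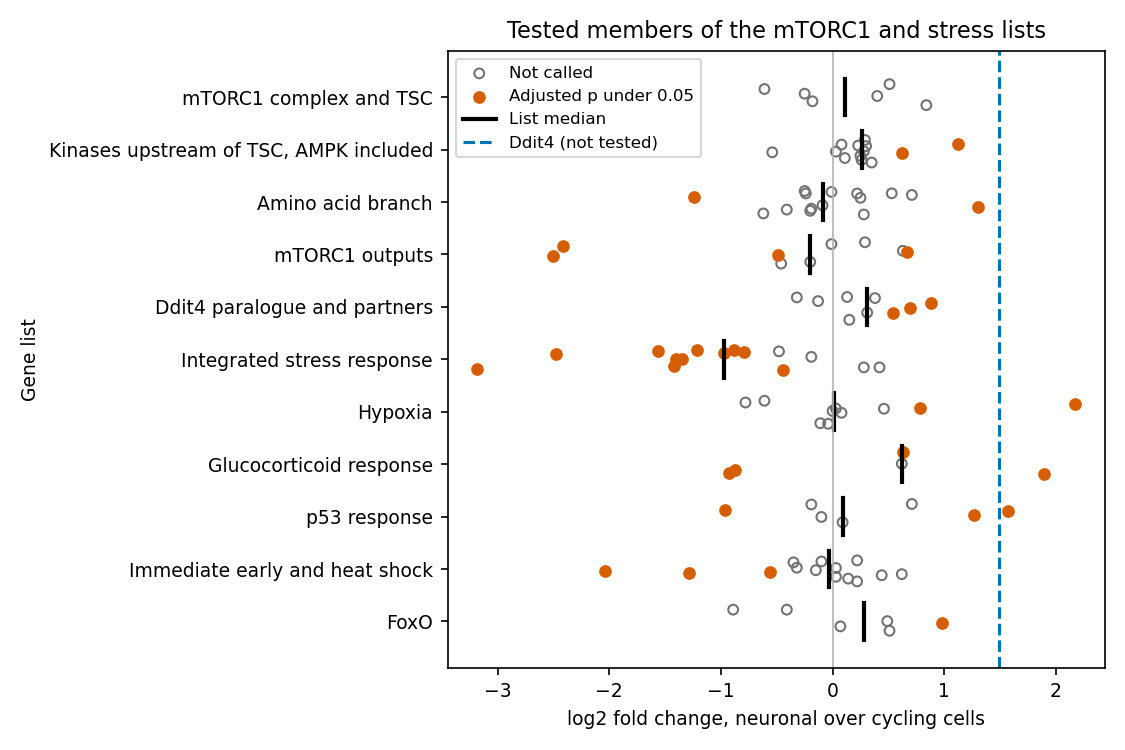
Fitted log2 fold change (neuronal over cycling cells, horizontal axis) of each tested gene in 11 lists; filled points were called at an adjusted p under 0.05, black bars are list medians and the dashed line marks Ddit4 at 1.49. The integrated stress response list has its median at -0.97 and 11 filled points to the left of 0, whereas Ddit4 lies to the right.

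Of the 12 listed genes of the mTORC1 and TSC complexes, to which Ddit4 signals, 6 were tested. None of these was called (edgeR), where 31.1% of all genes tested were, and their median was 0.11. The lowest edgeR adjusted p were 0.0677 for Rheb, lower in neuronal cells, and 0.0784 for Tbc1d7, higher in them. Mtor, Rptor, Mlst8, Deptor, Tsc2 and Tti1 were too low to test. On few UMIs, Mlst8 (14 and 15) and Deptor (24 and 13) had higher CPM in neuronal cells in 4 of 4 tumours. Tti1 (7 and 24) was lower in 4 of 4. Tsc1, the scaffold of the TSC complex, stood at 77.8 ± 37.0 CPM in neuronal and 55.1 ± 40.1 CPM in cycling cells (SD, n = 4), with an adjusted p of 0.318 by edgeR. Tsc2, the subunit with GTPase-activating function, gave 14 and 16 UMIs and was too low to test. Prkaa1 gave 6 UMIs in neuronal and 17 in cycling cells, and Prkaa2 11 and 12.

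Of the 13 tested kinase genes upstream of TSC, 2 were higher in neuronal cells and none was lower, against 14.9% and 16.3% of all genes. Pik3r1, the regulatory subunit p85 of phosphoinositide 3-kinase, was at 108.0, 107.0, 108.4 and 85.4 CPM in neuronal cells of tumours 1 to 4 and at 40.7, 53.8, 51.0 and 38.2 CPM in cycling cells. The groups did not overlap, and the log2 fold was 1.12 ± 0.27 (SE, edgeR adjusted p = 0.00131). Pik3ca, the catalytic subunit, rose by 0.62 ± 0.24 (SE, edgeR adjusted p = 0.0435), a call that was lost without tumour 1, 3 or 4 (adjusted p between 0.00669 and 0.534 over the alternatives).

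In the amino acid branch, which signals to mTORC1 at the lysosome, 1 of 15 tested genes was higher and 1 lower. Both were too low for the naming rule and are named here after their values were seen: Slc38a9, the lysosomal arginine sensor, had a log2 fold of 1.30, and Rragd, a Rag GTPase, -1.24. The Slc38a9 call was lost without tumour 1, 3 or 4 and the Rragd call without tumour 2, 3 or 4. Over the alternatives in which they were tested, the log2 folds ran from 0.79 to 1.94 (without tumour 2) for Slc38a9 and from -1.53 to -1.07 for Rragd. The sestrins are stress-induced inhibitors of this branch. Sesn1 gave 27 UMIs in neuronal and 28 in cycling cells (edgeR adjusted p = 0.295), Sesn3 26 and 62 (edgeR adjusted p = 0.437), and Sesn2 gave 1 and 3 UMIs and was not tested.

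Among the 9 tested outputs of mTORC1, 1 was higher and 3 were lower, against 14.9% and 16.3% of all genes tested. Pdcd4, a translation inhibitor whose protein is degraded upon mTORC1 and S6 kinase signalling, was at 289.4, 309.6, 511.0 and 643.9 CPM in neuronal and 228.3, 193.5, 212.7 and 416.7 CPM in cycling cells. It was higher in 4 of 4 tumours, although the groups overlapped, with a log2 fold of 0.67 ± 0.17 (SE, edgeR adjusted p = 0.00308). Eif4g1, the scaffold of the cap-binding complex, fell by 0.49 ± 0.16 on the log2 scale (SE, edgeR adjusted p = 0.0153), a call lost without tumour 1 or 4. Eif4ebp1, the repressor of cap-dependent translation that mTORC1 inactivates, and Rps6, the ribosomal substrate of S6 kinase, were below the naming rule's level and are named after their values were seen, with log2 folds of -2.41 and -2.50. Eif4ebp1 was lower in 3 of 4 tumours, with 22.5 CPM in neuronal and 21.5 CPM in cycling cells of tumour 2, and its log2 fold without that tumour was -3.16. Rps6 rests on 4 and 45 UMIs, and reads of its processed pseudogenes could have been split or lost, so its value is uncertain.

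Genes for proteins that bind or control Ddit4 included 3 called higher of 9 tested and none lower, against 14.9% and 16.3% of all genes. Gsk3b, a kinase involved in the turnover of Ddit4, was at 591.8, 771.2, 596.2 and 608.3 CPM in neuronal and 397.2, 519.6, 319.0 and 328.7 CPM in cycling cells, without overlap (log2 fold 0.69 ± 0.16, SE, edgeR adjusted p = 0.00081). The 14-3-3 proteins, from which Ddit4 has been proposed to release TSC2, were represented by Ywhag (0.88 ± 0.22, SE, edgeR adjusted p = 0.00186) and Ywhab (0.54 ± 0.16, SE, edgeR adjusted p = 0.00765), each higher in 4 of 4 tumours. The other 14-3-3 genes tested were not called: Ywhae (0.15), Ywhaz (0.31), Ywhaq (0.38) and Ywhah (-0.13) had edgeR adjusted p of 0.443, 0.17, 0.104 and 0.676.

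The tested genes of the integrated stress response list went mostly in the opposite direction to Ddit4. Of 26 members 15 were tested, of which 11 were lower in neuronal cells and none was higher, with a median of -0.97. Over all genes tested 16.3% were lower. A gene high in 1 class alone could pass the filter on low counts. Phgdh had 0 to 13 CPM in neuronal and 46.9 to 129.5 CPM in cycling cells, and Mthfd2 8.64 to 31 and 37.5 to 124.5 CPM. The count and the median therefore depend on the filter, which members low in both classes did not pass. Slc3a2, the heavy chain of amino acid transporters, was at 60.5, 56.3, 31.0 and 92.5 CPM in neuronal and 112.6, 146.9, 229.7 and 174.3 CPM in cycling cells. These groups did not overlap, and the log2 fold was -1.35 ± 0.26 (SE, edgeR adjusted p = 0.000139). Shmt2, a mitochondrial enzyme of serine and one-carbon metabolism, was at 30.2, 33.8, 38.7 and 42.7 CPM in neuronal and 59.4, 93.2, 123.3 and 147.8 CPM in cycling cells, again without overlap (log2 fold -1.56 ± 0.29, SE, edgeR adjusted p = 6.47e-05). Eif2s1, the initiation factor subunit that stress kinases phosphorylate, fell by 0.88, Psat1, a serine synthesis enzyme, by 0.97, and Cebpg, a partner of Atf4, by 0.79 on the log2 scale. The other 6 called genes are named after their values were seen: Phgdh and Mthfd2, of serine and folate metabolism, Asns, Slc7a5, Atf5 and the chaperone gene Hspa5, with log2 folds from -3.18 for Phgdh to -0.44 for Hspa5. Psat1 had a log2 fold of -0.12 in tumours 1 and 2 only (edgeR adjusted p = 0.9), -1.57 in tumours 3 and 4 only and -0.54 without tumour 4. Eif2s1 had -0.31 in cells of at least 1000 UMIs (edgeR adjusted p = 0.515), and Asns, at -1.42, had -2.32 without tumour 4. The calls of Psat1, Cebpg and Slc7a5 were lost without tumour 4, that of Atf5 without tumour 2 or 3 and that of Hspa5 without tumour 1, 2 or 3. Most of these members are genes of amino acid transport, amino acid synthesis and one-carbon metabolism. The number of them called was 3 without the tumour block, 6 by DESeq2, 5 in cells of at least 1000 UMIs and 7 without tumour 4.

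Atf4 itself, the transcription factor of this response, stood at 175.0 ± 42.0 CPM in neuronal and 200.4 ± 36.9 CPM in cycling cells (SD, n = 4), with an edgeR adjusted p of 0.523. Ddit3, the CHOP factor, gave 27 and 30 UMIs, or 34.5 ± 8.63 and 19.7 ± 5.54 CPM, higher in neuronal cells in 4 of 4 tumours, but it did not pass the filter on low counts and was not tested.

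**Figure D4:**
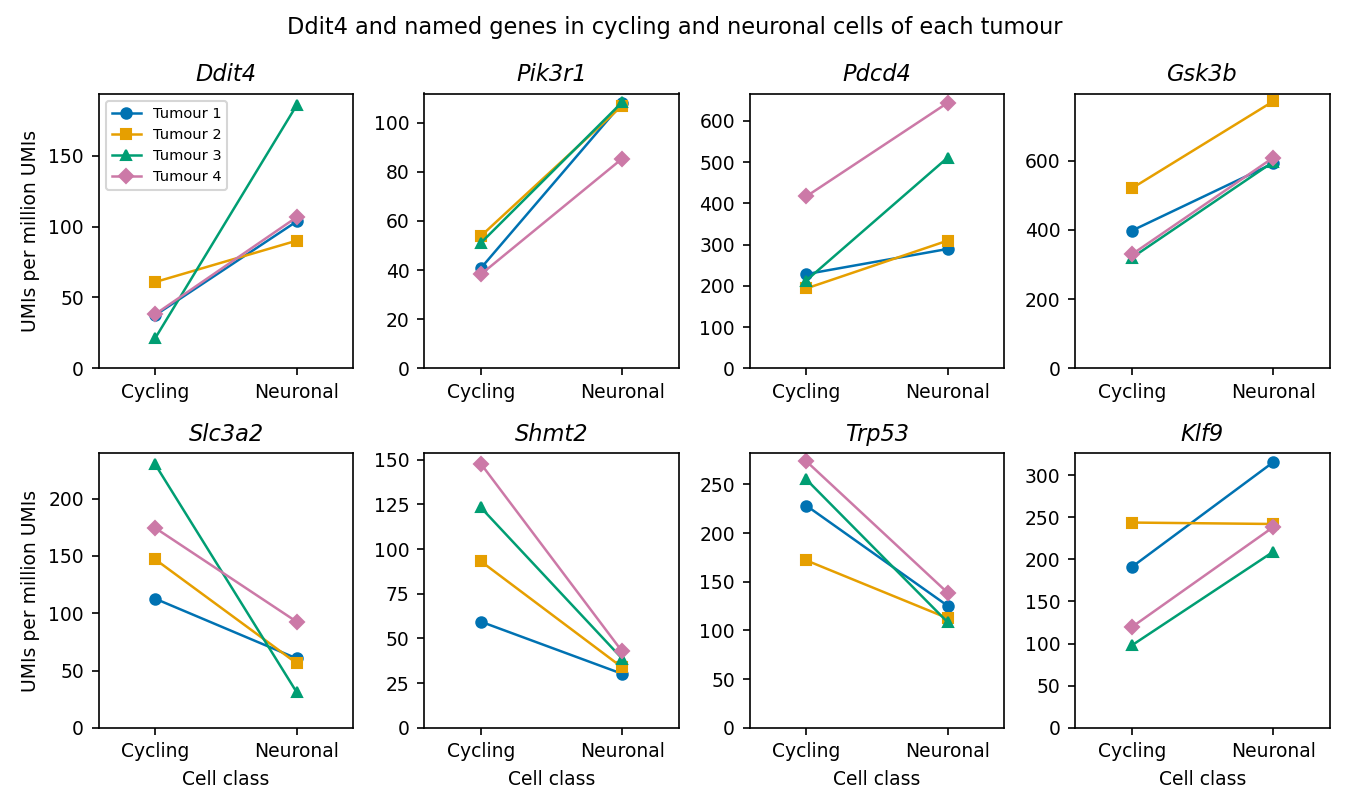
Level (CPM, vertical axes from 0, scaled per gene) of Ddit4 and 7 named genes in cycling and neuronal cells; lines join the 2 classes of 1 tumour. Pik3r1, Pdcd4 and Gsk3b go up from cycling to neuronal cells in all 4 tumours, Slc3a2, Shmt2 and Trp53 go down in all 4, and Klf9 goes up in 3.

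The other classes of inducers moved in no common direction. In the hypoxia list 2 of 10 tested genes were higher and none lower, against 14.9% and 16.3% of all genes tested. Mxi1, a Myc antagonist induced by hypoxia, rose by 0.78 ± 0.25 on the log2 scale (SE, edgeR adjusted p = 0.0151). Bnip3, a mitophagy receptor named after its value was seen, had a log2 fold of 2.17 from 39 and 15 UMIs, higher in 3 of 4 tumours. It was at 4.32, 11.3, 61.9 and 99.6 CPM in neuronal and 9.38, 0, 12.8 and 14.9 CPM in cycling cells, so the fold came mainly from tumours 3 and 4. Hif1a was at 98.3 ± 37.4 and 91.9 ± 15.8 CPM in neuronal and cycling cells (SD, n = 4, edgeR adjusted p = 0.943), and Vegfa, a standard hypoxia target, gave 10 and 23 UMIs. The Mxi1 call was lost without tumour 3 and without tumour 4.

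In the glucocorticoid list 2 of 5 tested genes were higher and 2 lower, against 14.9% and 16.3% of all genes tested. Klf9, a glucocorticoid and thyroid hormone target that accompanies neuronal maturation, was at 315.3, 242.0, 209.0 and 238.3 CPM in neuronal and 190.8, 243.7, 97.8 and 119.5 CPM in cycling cells (log2 fold 0.63 ± 0.20, SE, edgeR adjusted p = 0.0134), a call lost without tumour 1, 3 or 4. Mt1, a metallothionein, had 276.5 CPM in neuronal cells of tumour 1 against 24.9 to 56.3 CPM in the other 3 tumours (log2 fold 1.89, edgeR adjusted p = 0.0105), and its call was lost without tumour 3 and with doublets left out (log2 fold 0.80, edgeR adjusted p = 0.202). Its log2 fold ran from 0.80 to 3.44 over the alternatives in which it was tested. Late neuronal cells of tumour 1 also held 2.89 UMIs of astrocyte and radial glia markers per 1000, against 0.742 to 0.909 in the other 3 tumours. Without the cells that carried at least 4 markers of another type, the Mt1 UMIs in neuronal cells of tumour 1 went from 64 to 9, and Mt1 was no longer tested. Nr3c1, the glucocorticoid receptor, fell by 0.87 (edgeR adjusted p = 0.0199) and Fkbp5, its co-chaperone and target, by 0.93 (edgeR adjusted p = 0.0142) on the log2 scale. The Nr3c1 call was lost without tumour 1, 2 or 4 and the Fkbp5 call without tumour 1 or 4. Tsc22d3, another glucocorticoid target, gave 18 UMIs in neuronal and 36 in cycling cells, and Sgk1 gave 6 and 7.

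In the p53 list Trp53 was lower, at 125.3, 112.6, 108.4 and 138.7 CPM in neuronal against 228.3, 172.0, 255.2 and 273.9 CPM in cycling cells, without overlap (log2 fold -0.96 ± 0.20, SE, edgeR adjusted p = 0.000361). Its targets Gadd45a and Trp53inp1, named after their values were seen, were called higher, with log2 folds of 1.57 and 1.27, the latter not without tumour 3 or 4. These were 3 calls among 7 tested genes, where 31.1% of all genes tested were called. Cdkn1a, the p53 target and cell cycle inhibitor, gave 16 and 51 UMIs. Of the 14 tested immediate early and heat shock genes, which respond to tissue dissociation, 3 were lower and none higher. Over all genes tested 16.3% were lower. The 3 were Fosb (-2.04 ± 0.41, SE, edgeR adjusted p = 0.000424, and -3.07 without tumour 1), Hsph1 (-0.56 ± 0.20, SE, edgeR adjusted p = 0.035) and Ier5, named after its value was seen, with a log2 fold of -1.29. The Hsph1 call was lost without tumour 1, 2 or 3 and the Ier5 call without tumour 1. Fos differed more between tumours than between classes, from 39.4 to 619.4 CPM in neuronal cells (edgeR adjusted p = 0.523), with its highest value in tumour 3. Ddit4 was likewise highest in tumour 3 in neuronal cells, at 185.8 CPM. In cycling cells Fos was again highest in tumour 3, at 412.6 CPM, whereas Ddit4 was lowest there, at 21.3 CPM. A relation between Fos and Ddit4 across tumours was not tested. Jun was at 492.4 ± 100.7 CPM in neuronal and 597.7 ± 96.9 CPM in cycling cells (SD, n = 4, edgeR adjusted p = 0.117). Of the 6 tested FoxO genes 1 was higher, against 14.9% of all genes tested. It was Pik3ip1, an inhibitor of phosphoinositide 3-kinase named after its value was seen (log2 fold 0.98, lost without tumour 2, 3 or 4). Txnip, a glucose-responsive gene, gave 9 UMIs in neuronal and 7 in cycling cells. Ddit4l, the paralogue of Ddit4, and Trib3 were not analysed here.

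Genes with a pattern like that of Ddit4 were ranked by Pearson r of log2 (CPM + 10) over 20 points, the 5 states in each of 4 tumours, among 4068 genes outside the marker lists with a mean of at least 50 CPM. The points share libraries and state definitions, so r is a description. The median r of all candidates was -0.01. Scrt1, a neuronal transcriptional repressor, was the most alike (r = 0.84), with means of 47.0 and 53.2 CPM in G2/M and S-phase cells, 85.6 CPM in non-dividing progenitors and 169.9 and 128.8 CPM in early and late neuronal cells. Ywhag (r = 0.75), the kinase gene Sbk1 (0.74), the beta-secretase gene Bace1 (0.73), Mex3b (0.73), the cohesin loader gene Mau2 (0.73), Trpc4ap (0.72), Zfp606 (0.72) and the histone demethylase gene Kdm5b (0.70) followed. The least alike were D17H6S56E-5 (-0.80), Dtymk (-0.79), a thymidylate kinase gene, the histone chaperone gene Nap1l1 (-0.78), the centrosomal gene Cep57 (-0.77) and Chaf1a (-0.77), a subunit of the chromatin assembly factor.

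A separate question was which transcripts accompany Ddit4 within neuronal cells, which does not rest on the contrast that selected the gene. After thinning to 500 UMIs, 52 neuronal cells had a Ddit4 UMI (12, 9, 14 and 17 in tumours 1 to 4) and 865 had none. Of 1472 genes tested with edgeR on sums per tumour, 1 gene was called (0.0679% of those tested), and 135 had an unadjusted p under 0.05. DESeq2 called none, with 46 at an unadjusted p under 0.05. The called gene was mt-Rnr2, the mitochondrial 16S ribosomal RNA. It was at 63481.5, 73035.0, 15888.9 and 10376.1 CPM in cells with Ddit4 and at 86309.6, 109224.5, 17532.5 and 16913.0 CPM in cells without, lower in 4 of 4 tumours (log2 fold -0.95 ± 0.20, SE, edgeR adjusted p = 0.00236). Scaling shifted the folds: the median log2 fold of all tested genes was -0.29 with TMM scaling and 0.15 with library totals, and with library totals the value for mt-Rnr2 was -0.47 (adjusted p = 0.501, edgeR). The call was also lost without tumour 1 (adjusted p = 0.887, edgeR) and without tumour 4 (adjusted p = 0.0531, edgeR). The fit without tumour 1 also drew the thinned UMIs anew, with 10 and 19 cells with Ddit4 in tumours 2 and 4 in place of 9 and 17. Its change therefore cannot be assigned to tumour 1 alone.

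None of the 23 tested genes from the 11 lists was called in that comparison (0 by edgeR, 2 at an unadjusted p under 0.05). The naming rule, a mean of at least 100 CPM and the same side in every tumour, selects on the values themselves, so the genes it gave and their direction are a description only. The largest folds towards cells with Ddit4 were those of Morn4 (7 UMIs in cells with Ddit4, log2 fold 3.07), Smad5, Trmt1, Smarca1, Kif21b, Sucla2, Pik3r1, Gps2, Fnbp1 and Ppp2r1a, each on 6 to 10 UMIs and with edgeR adjusted p between 0.303 and 0.747. State marker genes were kept in this comparison, and Kif21b is one of the early neuronal markers. In 9 of these 10 genes the level in cells without Ddit4 was under 100 CPM, as for Morn4 with 269.7 CPM in cells with Ddit4 and 22.9 CPM in cells without. The largest folds away were those of Anp32b, Arpc5, Akr1a1, Pebp1 and R3hdm2, each with 1 UMI in cells with Ddit4. The same comparison was not run in cycling cells, where 6, 8, 4 and 7 cells had Ddit4 after thinning, since 15 in every tumour had been set as the minimum for cycling cells. No such minimum was set for neuronal cells, of which 3 tumours had fewer than 15 with Ddit4.

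Over all 225 cells with Ddit4, whatever their state, the summed UMIs of the 11 lists were 0.798 to 1.14 times what their tumour, state and depth gave. These ratios pool cells of 4 tumours and are a description, with no test. The ratio was 1.14 for kinases upstream of TSC, 0.798 for FoxO genes, 0.814 for glucocorticoid genes, 0.832 for the mTORC1 and TSC complexes and 0.916 for mTORC1 outputs. The glucocorticoid list includes Mt1, most of whose UMIs in neuronal cells of tumour 1 came from cells with markers of another type. The ratio was 1.06 for the integrated stress response, 1.04 for hypoxia, 1.13 for p53, 0.997 for the amino acid branch, 0.993 for partners of Ddit4 and 1 for immediate early and heat shock genes. Mitochondrial transcripts had a ratio of 0.937. Single inducers were seen in few of these cells: Atf4 had 42 UMIs against 44.9 expected, Hif1a 31 against 28.5, Ddit3 9 against 7.16, Cdkn1a 13 against 8.34 and Fos 39 against 58.8.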

How the data were processed

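The deposited tables hold whole-number UMI counts per gene and barcode, 1 table per tumour, not normalized, as the values show. STAR and mm10 are named in the submitters' processing notes without a version or role, and the counting software, annotation and barcode filter are not given in the sources used here. Another 6 tables with 11203 cell columns carry cell names without a counterpart among the labelled samples, and these are not used here.

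Barcodes with at least 500 UMIs were kept, without a limit on mitochondrial share and with doublets kept. Scrublet (scanpy 1.11.5) marked 12 barcodes, which with those more than 4 SD above the median depth were left out as an alternative. Levels are UMIs per 1000000 UMIs of the summed cells (CPM), with exact Poisson 95% intervals, and shares have exact Clopper-Pearson intervals. Sums per tumour ranged from 129160 to 602355 UMIs in the comparison of neuronal with cycling cells, which was fitted with edgeR 4.0.16 in R 4.3.3 (TMM, filterByExpr, robust quasi-likelihood test), as was that of cells with and without Ddit4. DESeq2 1.42.0 was an alternative. Both sums of a tumour come from 1 tumour, and their deviations from the class means correlated over 6398 genes with r of 0.65, 0.51, 0.59 and 0.67, so the tumour was a block. The scripts were tested on simulated data.

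Genes were named by rule: from each list, called members with a mean of at least 50 CPM, up to 5 by adjusted p, and a set of regulators whatever they showed. For co-detection these were the 10 largest folds towards and the 5 largest away from cells with Ddit4. One gene that the rule on likeness of pattern names is not reported here. Ddit4, the lists and the tests were chosen with earlier results of these data known. The scoring of states and its limit were set after the tables were seen.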

Additional observations from a re-analysis of the deposited data

Results flagged for a closer look

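Among 79 groups of 4 tumours examined for a value far from the other 3, 8 had one, and chance gives about 1 in 20 groups. One was the level of Ddit4 over all cells, given here as a description: 104.0 CPM in tumour 3 against 65.3 to 71.9 CPM in the others, a gap only just past the limit used. The other 7 were among the named genes. Neuronal cells of tumour 4 were low in Pik3r1 (85.4 CPM against 107.0 to 108.4) and high in Asns (56.9 CPM against 5.63 to 13). Neuronal cells of tumour 2 were high in Gsk3b (771.2 CPM against 591.8 to 608.3) and in Psat1 (78.8 CPM against 60.5 to 61.9). Neuronal cells of tumour 1 were high in Mt1 (276.5 CPM against 24.9 to 56.3). Cycling cells of tumour 4 were high in Pdcd4 (416.7 CPM against 193.5 to 228.3) and in Mxi1 (111.2 CPM against 46.9 to 55.3).

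Barcodes under 500 UMIs, which no level above includes, held 102 Ddit4 UMIs, or 83.7 CPM (exact Poisson 95% interval 68.2 to 101.6), close to the 75.2 CPM of the barcodes used. By tumour they held 80.4, 74.5, 80.2 and 121.2 CPM in tumours 1 to 4, against 65.3, 71.9, 104.0 and 71 CPM in the barcodes used. The level was thus higher in tumour 4 (interval 77.7 to 180.3) and lower in tumour 3 (40 to 143.4).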

How the results depend on the processing

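Over 16 alternatives the neuronal to cycling ratio of Ddit4 ran from 2.02 to 3.94. It left the interval of the reported value in 1, in tumours 1 and 2 only (2.02). Neuronal cells were higher in every tumour under each alternative but that of at least 1000 UMIs, where tumour 2 went the other way (50.5 against 62.3 CPM) and the groups overlapped. Of 112 levels by state under these alternatives, 6 moved by more than 1 SD between tumours, all in S phase, whose SD was small: 34 CPM with mitochondrial share at most 10%, 45.4 with a looser state margin, 43.6 with doublets left out, 46.9 thinned to 500 UMIs, 44.9 as a mean over cells and 43.5 without mitochondrial UMIs in the total. Others moved by over 1.5 times within a wide SD: late neuronal cells to 56.9 CPM with at least 1000 UMIs and 58.2 with Leiden clusters, non-dividing progenitors to 87.8 without tumour 3 and 70 in tumours 1 and 2 only, and G2/M to 21.4 in tumours 3 and 4 only. The means of both cycling states lay below those of the 3 other states under each of the 16. Shares of cells with Ddit4 depend on depth: unthinned 4.34% of cycling and 9.77% of neuronal cells, thinned to 1000 UMIs 4.11% and 11%, the latter higher in 3 of 4 tumours.

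The 1944 genes called between neuronal and cycling cells (928 higher, 1016 lower) became 1040 (520 and 520) by DESeq2, 854 (419 and 435) with at least 1000 UMIs, 407 (215 and 192) without the replicate block and 1043 (523 and 520) in tumours 1 and 2 only. Leaving out each tumour gave 1182 (without tumour 4) to 1695 (575 to 823 higher, 607 to 872 lower). The 11 lower integrated stress response genes became 6, 5, 3 and 5 under the same 4 alternatives, and 7 to 10 leaving out each tumour. No called list gene changed sign under any alternative in which it was tested. Of 35 such genes, 20 lost the call by DESeq2 and, of 26 that could be tested without the block, 22 did.

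In cells with against cells without Ddit4, the 1 call became 0 by DESeq2, without cells carrying other markers, with mitochondrial share at most 10%, without the replicate block, with library totals in place of TMM and in either pair of tumours. It became 5 with doublets left out, 16 with a looser state margin, 60 without a filter on low counts and 3 in unthinned cells, and 0 to 2 leaving out each tumour. Most settings that left out cells or tumours also drew the thinned UMIs anew. Tumour 4 then had 13 cells with Ddit4 without tumour 3 and 11 in tumours 3 and 4 only, against 17. With doublets left out tumour 2 had 11 against 9. Another draw over the same cells also gave 1 call. The alternatives in pairs of tumours, without mitochondrial UMIs, without cells carrying other markers and with library totals were chosen after seeing the data. The cause of these differences was not tested. The reported comparison rests on 9 to 17 cells with Ddit4 per tumour, and the alternatives on 2 to 27.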
